A study of Mus musculus with 3 samples.

Results

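The genes described here encode the mitochondrial respiratory chain and ATP synthase, together with the factors that assemble them. Members were chosen by symbol, as rows that start with mt-, Nduf, Sdh, Uqcr or Atp5 or that read Cox4 to Cox8, with at least 5 CPM, UMI counts scaled to a common total, over all kept cells. Of 104 rows with such a symbol 101 reached that level, out of 15338 genes counted, of which 9689 reached it. The mitochondrial genome encodes 13 of the members and the nucleus 88, of which 75 are subunits and 13 are assembly factors. By complex, the nuclear members are 43 of complex I, 8 of complex II, 8 of complex III, 13 of complex IV and 16 of ATP synthase. The rows that fell short were Ndufaf5 (3.81 CPM), Cox6b2 (2.90 CPM) and Cox7a1 (0.65 CPM), and the members nearest to the limit were Ndufaf6 (9.28 CPM), Cox6a2 (9.87 CPM) and Atp5s (11.6 CPM).

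Single-cell RNA sequencing was done on microglia sorted from the brains of 8-week-old mice as CD11b+ CD45low Cx3cr1+ cells, with 1 library for each of 3 genotypes. The hCD33m library came from female mice that carry the short isoform of human CD33, and the hCD33M library from male mice that carry the long isoform. Both transgenes are floxed-stop cDNA cassettes in the Rosa26 locus that Cx3cr1-driven Cre switches on, and the hCD33m line goes back to 1 embryonic stem cell clone. The Control library came from male wild type mice, and all are on a C57BL/6 background. The sources used here do not state whether the Control mice carried Cre, nor how many mice went into each of these libraries. All brains were perfused and held cold with inhibitors of transcription, with an inhibitor of translation added during storage.

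The respiratory chain passes electrons from NADH through complex I, or from succinate through complex II, to ubiquinone, complex III, cytochrome c and complex IV, which reduces oxygen. Complexes I, III and IV pump protons across the inner membrane, and ATP synthase, also called complex V, uses that gradient to make ATP. Every complex except complex II is built from subunits of both genomes, so cells must make nuclear-encoded and mitochondrially encoded parts together. Microglia, the resident macrophages of the brain, draw on this pathway at rest and can shift toward glycolysis when activated.

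The mitochondrial genes lie close together on 1 small circular genome, are cut from long shared transcripts and in places overlap, and the overlaps matter for a 3′ count. These sequences show the overlaps, with the shared bases in capitals, and the 3′ end of mt-Nd3 with its stop codon in capitals, because mt-Nd3 gave the widest difference between genotypes. All are from GENCODE transcripts on GRCm38, the mm10 build, on the plus strand, at chrM:7927-7969 and chrM:10167-10173 for the shared bases and at chrM:9747-9806 for mt-Nd3.
mt-Atp8 and mt-Atp6: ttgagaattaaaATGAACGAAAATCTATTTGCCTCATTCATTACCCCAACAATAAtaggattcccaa
mt-Nd4l and mt-Nd4: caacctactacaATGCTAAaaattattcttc
mt-Nd3: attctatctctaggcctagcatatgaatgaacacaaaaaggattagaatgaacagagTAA

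mt-Atp8 and mt-Atp6 share 43 bases and 1 messenger RNA, so they also share its 3′ end, and the same holds for mt-Nd4l and mt-Nd4, which share 7 bases. The counts of the upstream gene of each pair were low: mt-Atp8 had 42.8, 50.9 and 41.0 CPM in hCD33m, hCD33M and Control microglia-like cells, and mt-Nd4l had 157.0, 158.4 and 164.5 CPM. mt-Nd6, the member on the minus strand, had 20.1, 23.3 and 21.8 CPM. For 7 of the 13 mitochondrial members and 19 of 87 nuclear members searched, the last 300 bases matched an annotated transcript of another gene over at least 100 bases at 95% identity or more. The 7 were mt-Nd2, mt-Co1, mt-Co2, mt-Atp6, mt-Co3, mt-Nd3 and mt-Nd4l, and their matches were pseudogenes with no row in the tables used here. Reads that fit a gene and its copy equally may have been lost or moved in the authors' counting, so the levels of these genes are uncertain to that extent.

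The number of barcodes was 5707 in hCD33m, 5100 in hCD33M and 3482 in Control, with totals of 32572995, 28387611 and 21529542 unique molecular identifiers (UMIs). From these, 5612, 5046 and 3412 cells were kept at over 200 and under 8000 genes and at most 10% mt- UMIs. That limit acts on 1 of the measures described here, and it removed 91 hCD33m, 54 hCD33M and 65 Control barcodes. Between 7 and 10 barcodes were shared by each pair of libraries. Cells were clustered without the members and without the sex-linked genes Xist, Ddx3y, Eif2s3y, Kdm5d and Uty, and 4552 hCD33m, 3933 hCD33M and 2695 Control cells fell in clusters called microglia-like, at median depths of 5362.5, 5303 and 5626 UMIs. P2ry12, Tmem119 and Sall1, which mark microglia, were at 3524, 1774 and 415.1 CPM in hCD33m, 3486, 1569 and 467.4 CPM in hCD33M, and 3325, 1413 and 435.6 CPM in Control. Different clusters held most of the class in each genotype: cluster 2, with Ddit4, Tsix and Xist as its leading genes, held 2437 hCD33m, 292 hCD33M and 183 Control cells, and cluster 0, with Eif2s3y, Ddx3y and Erh leading, held 524, 1852 and 1491. Cx3cr1, whose locus drives the Cre, had 3172 CPM (hCD33m) and 3404 CPM (hCD33M) in the transgenic libraries against 5733 CPM in Control. The human transgenes were not analysed here, so the targeted gene gives no check of the labels. With 1 library a genotype there is no test between genotypes, and intervals cover counting error only. Genotype cannot be told apart from sex (for hCD33m) or from the library. Nor can the transgenes be told apart from Cre, since its presence in Control is not stated.

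Mitochondrially encoded members took a larger share of the UMIs of hCD33M microglia-like cells than of either other library, while the nuclear-encoded members were close to level. Of all UMIs, the 13 mitochondrial members held 1.99% (hCD33m), 2.28% (hCD33M) and 1.95% (Control), and the 88 nuclear members held 1.11%, 1.11% and 1.13%. On the log2 scale the mitochondrial sum was higher in hCD33M than in Control by 0.22 (95% interval 0.22 to 0.23), and lower in hCD33m than in hCD33M (log2 -0.20, -0.21 to -0.20). Between hCD33m and Control it differed by 0.02 (0.02 to 0.03), and the nuclear sum differed by -0.02 in each comparison with Control. Over single cells hCD33M was again highest, while hCD33m lay below Control: the median share of mitochondrial members was 1.82% in hCD33m, 2.08% in hCD33M and 1.87% in Control cells, and that of nuclear members 1.09%, 1.10% and 1.11%. Malat1, a nuclear RNA, and the cytosolic ribosomal protein genes also differed between libraries, in opposite orders and with hCD33M between the others in both. Malat1 held 4.204%, 3.92% and 3.71% of UMIs in hCD33m, hCD33M and Control, and ribosomal protein genes 6.56%, 7.14% and 7.49%. Their part in the member values was not tested.

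Of the mitochondrial members, mt-Nd3, a membrane subunit of complex I, was the furthest apart. It had 780.6 CPM in hCD33m and 909.1 CPM in hCD33M, against 576.1 CPM in Control, so that both transgenic libraries were above Control (log2 0.44, 0.40 to 0.47, for hCD33m and 0.66, 0.62 to 0.69, for hCD33M). In hCD33M it was the single member of all 101 that stood at least 1.5-fold above Control, beside 0.811% of all genes tested that did so. As a count over the members that is near the share over all genes. Its neighbours on the genome did not share that size: mt-Co3, just upstream, had 3499.6, 4024 and 3377 CPM (hCD33M over Control 0.25), and mt-Nd4l, just downstream, had the values above (hCD33M over Control -0.05, -0.13 to 0.02). mt-Nd3 was also above Control within each cluster tried. The clusters are parts of the same libraries, and every ratio uses the same Control library, so their agreement is no separate support. In cluster 0 it had 846.7 CPM in hCD33m and 913.2 in hCD33M against 594.4 in Control, in cluster 1 it had 691.3 and 805.8 against 541.0, and in cluster 2 it had 733.4 and 840.8 against 541.1.

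The catalytic and membrane subunits of complex IV split. mt-Co1, which holds the oxygen-binding centre, had 2273, 2650.1 and 2664 CPM in hCD33m, hCD33M and Control, so that hCD33m was below the others (hCD33m over Control -0.23, -0.25 to -0.21) and hCD33M was level with Control (-0.01). mt-Co2, which takes electrons from cytochrome c, had 2429, 2831 and 2317 CPM and was above Control in hCD33M (0.29), as mt-Co3 was. Both mitochondrially encoded subunits of ATP synthase, which lie in its membrane part, were above Control in hCD33M: mt-Atp6 had 3042, 3583 and 2790.3 CPM (0.36, 0.34 to 0.38) and mt-Atp8 differed by 0.31 (0.18 to 0.45). mt-Cytb, the cytochrome b of complex III, had 2211, 2483 and 2169.8 CPM (0.19).

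Among the other complex I genes, mt-Nd1 had 1609.8, 1822 and 1647 CPM, mt-Nd2 had 1638, 1833 and 1569 CPM and mt-Nd4 had 1883, 2151 and 1878 CPM, each highest in hCD33M. mt-Nd5, a proton-pumping subunit, had 276.1, 322.2 and 330.7 CPM, lower in hCD33m than in Control (-0.26, -0.31 to -0.21) and close to Control in hCD33M (-0.04). Over the 13, the median log2 ratio was 0.20 for hCD33M over Control, beside 0.01 over all genes, with 9 intervals above 0 and 0 below. The background for these counts was 15.9% of genes with an interval above 0 and 10.8% below. For hCD33m over Control the median was 0.03, with 6 intervals above 0 and 3 below (background 17.7% and 19.8%). For hCD33m over hCD33M it was -0.21, with 12 of 13 intervals below 0 (background 21.8%), and mt-Nd4l was the exception. None of the 13 passed 1.2-fold in that pair, whereas mt-Nd3, mt-Co2, mt-Atp6 and mt-Atp8 did for hCD33M over Control (background 5.47% higher).

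**Figure D1:**
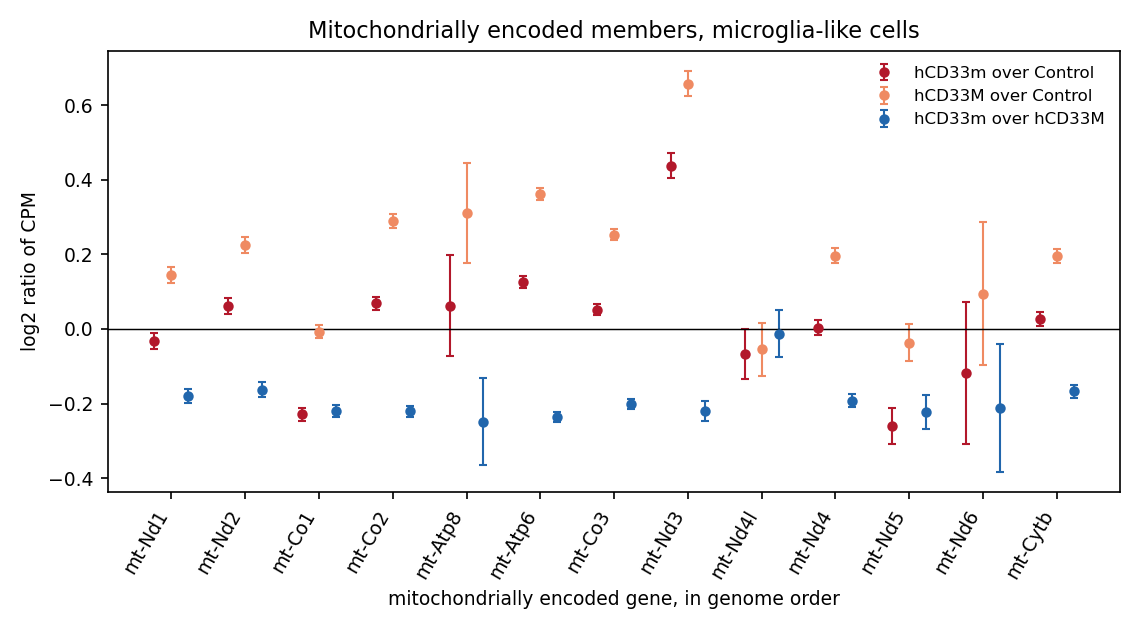
Log2 ratio of CPM in microglia-like cells for the 13 mitochondrially encoded members, in genome order, for hCD33m over Control, hCD33M over Control and hCD33m over hCD33M. Points are ratios of 1 library to another and bars are 95% counting intervals; mt-Nd3 stands at 0.44 and 0.66 over Control, and all 13 points of hCD33m over hCD33M lie below 0.

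A share of the hCD33M excess rested on few cells. Cluster 6, led by Cst7, Vcam1 and Cdkn1a, held 159 hCD33m, 160 hCD33M and 0 Control cells, and mitochondrial members took 3.69% of its UMIs in hCD33m and 4.79% in hCD33M. Against the other microglia-like cells of the same library, the mitochondrial sum of cluster 6 was 0.96 higher in hCD33m and 1.14 higher in hCD33M on the log2 scale, with 13 of 13 members higher in both, and the nuclear sum was 0.01 and 0.04 higher. Cluster 6 cells were not shallow, with median depths of 6770 UMIs in hCD33m and 5278 UMIs in hCD33M. Without cluster 6 the median ratio of mitochondrial members for hCD33M over Control was 0.13, and that for hCD33m over Control was -0.04. Over clusters 0 and 1 alone these medians were 0.12 and -0.06, and with at least 1000 genes and at most 5% mt- UMIs a cell the hCD33M value was 0.13. That 5% limit acts on the measure itself, so the last value does not show where the excess rested. Thinned to 2000 UMIs a cell, the hCD33m value was -0.04. The sign of the hCD33m value therefore changed among settings, and that of the hCD33M value did not.

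Cluster by cluster, hCD33M was above Control in the median of mitochondrial members, whereas hCD33m against Control had no common direction. The median ratio of the 13 members for hCD33M over Control was 0.16 in cluster 0, 0.13 in cluster 1, 0.21 in cluster 2, 0.23 in cluster 5 (interferon response genes) and 0.14 in cluster 9 (Ccl3 and Ccl4). For hCD33m over Control it was 0.08 in cluster 0 and 0.20 in cluster 9, but -0.04, -0.03 and -0.03 in clusters 1, 2 and 5. For hCD33m over hCD33M it was -0.11, -0.17, -0.21 and -0.25 in clusters 0, 1, 2 and 5, but 0.05 in cluster 9. Single members did not all follow the hCD33M medians. Of the 13 intervals for hCD33M over Control, 9, 8, 7, 8 and 7 lay above 0 in clusters 0, 1, 2, 5 and 9. Below 0 lay 3, 3, 0, 0 and 2. These were mt-Co1 (-0.08, -0.07 and -0.11) and mt-Nd5 in clusters 0, 1 and 9, and mt-Nd4l in clusters 0 and 1. Cluster 9 was itself higher in mitochondrial members than the other microglia-like cells of its library, by 0.53 in hCD33m, 0.27 in hCD33M and 0.33 in Control, with 13 of 13 members higher in each. Cluster 1 was lower on both sides: its mitochondrial sum differed by -0.25, -0.33 and -0.17, and its nuclear sum by -0.18, -0.17 and -0.19. In cluster 1 the nuclear members above the rest numbered 6, 7 and 5 of 88 in hCD33m, hCD33M and Control. In cluster 2 the nuclear sum was 0.08 higher in hCD33m, where 75 of 88 members were higher, and differed by -0.03 in hCD33M and -0.02 in Control. The cells it was set against differed in make-up between libraries. Cluster 1 held 1130 hCD33m, 1378 hCD33M and 869 Control cells, and cluster 0 held 524, 1852 and 1491. The part of that make-up in these values was not tested. No share over all genes was taken by cluster, so the counts here and for cluster 6 have no background beside them. Whether other genes shifted alike was not tested. These clusters were made from the cells they describe, so the values carry no test.

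Nuclear-encoded members differed little between genotypes. No nuclear member was 1.5-fold apart in any pair, where the background was 1.2% of genes higher and 1.4% lower for hCD33m over Control, 0.811% and 0.554% for hCD33M over Control, and 0.77% and 1.1% for hCD33m over hCD33M. For hCD33m over Control 2 of 88 were at least 1.2-fold higher and 2 lower (background 7.51% and 8.08% of genes), for hCD33M over Control 0 were higher and 3 lower (background 5.47% and 3.85%), and for hCD33m over hCD33M 2 were higher and 0 lower (background 4.75% and 7.14%). The median ratio was -0.03 for hCD33m over Control and -0.03 for hCD33M over Control, against -0.01 and 0.01 over all genes, with 54 of 88 members below 0 in each, where 51.8% and 46.4% of all genes lay below 0. These 2 comparisons share the Control library. Intervals lay below 0 for 19 (hCD33m) and 21 (hCD33M) members and above 0 for 9 in each, beside the background shares given for the mitochondrial members. The shares over all genes include genes of lower counts, whose ratios vary more by counting alone. No share over genes of like level was taken.

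Complex I has the most nuclear members, 36 of them subunits, with a median of -0.03 for hCD33m over Control and -0.05 for hCD33M over Control. Ndufa3, a small membrane-arm subunit, had 115.1 CPM in hCD33m, 103.7 in hCD33M and 99.3 in Control (hCD33m over Control 0.21, 0.13 to 0.30). Ndufb11, also of the membrane arm, had 112.5, 109.0 and 124.7 CPM and was below Control in both transgenic libraries (-0.15 and -0.19). Ndufs7, which carries the iron-sulfur cluster that hands electrons to ubiquinone, had 115.1, 110.6 and 125.7 CPM (-0.13 and -0.18). Ndufa1, another membrane-arm subunit, had 85.5, 88.2 and 79.7 CPM (0.10 and 0.15), and Ndufc1 differed by 0.12 and 0.10. Ndufc2 was higher in hCD33m (218.0 CPM) than in hCD33M (199.8 CPM), with a log2 ratio of 0.13, and Ndufb7 was lower in hCD33m (122.5 against 133.2 CPM, -0.12).

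Complex II, the enzyme that oxidises succinate and the complex with no mitochondrially encoded subunit, had medians of 0.02 for hCD33m over Control and 0.01 for hCD33M over Control among its 4 subunits. Sdha, the flavoprotein, had 104.9, 106.2 and 102.0 CPM in hCD33m, hCD33M and Control, Sdhb, the iron-sulfur subunit, had 112.7, 106.3 and 112.3 CPM, and the membrane anchor Sdhc had 60.1, 57.8 and 56.0 CPM. Sdhd, the other anchor, had 74.4, 78.6 and 80.2 CPM, and its interval for hCD33m over Control lay below 0 (-0.11, -0.21 to -0.01).

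Complex III was the nuclear group with the highest median for hCD33m over Control, 0.09 over its 8 subunits, with 4 intervals above 0 and 0 below (background 17.7% and 19.8%). Uqcrc1 and Uqcrc2, the core proteins, had 84.5 and 105.5 CPM in hCD33m, 78.6 and 97.8 CPM in hCD33M, and 75.04 and 96.6 CPM in Control (hCD33m over Control 0.17 and 0.13). The small subunits Uqcr10 and Uqcr11 were above Control in both transgenic libraries, by 0.15 and 0.14 in hCD33m and by 0.10 and 0.18 in hCD33M. Uqcrh, the hinge protein next to cytochrome c1, had 208.5, 204.7 and 217.1 CPM (-0.06 and -0.08), and Uqcrfs1, the Rieske iron-sulfur protein, had 71.8, 68.2 and 73.7 CPM (-0.04 and -0.11).

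In complex IV 11 of 12 nuclear subunits were below Control in hCD33m, where 51.8% of all genes were, and 4 had intervals below 0 (background 19.8%), with a median of -0.04. Cox5b, which binds zinc on the matrix side, had 145.2, 151.0 and 162.5 CPM in hCD33m, hCD33M and Control (hCD33m over Control -0.16, hCD33M over Control -0.11). Cox4i1, a subunit at which ATP regulates the enzyme, had 394.5, 407.8 and 423.9 CPM (-0.10 and -0.06). Cox5a had 116.0, 108.7 and 117.5 CPM and was below Control in hCD33M (-0.11). Cox6c was higher in hCD33M, with 207.9, 232.0 and 208.9 CPM (hCD33M over Control 0.15, hCD33m over hCD33M -0.16). Cox7b had 121.8, 122.9 and 129.7 CPM (-0.09 and -0.08), Cox7a2 had 173.2, 178.9 and 172.0 CPM, and Ndufa4, which sits in complex IV in spite of its name, had 231.0, 233.8 and 232.7 CPM.

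Several subunits of complex IV come in a widely expressed and a tissue-specific form. Cox6a1 had 135.6, 139.4 and 140.2 CPM, and the heart and muscle form Cox6a2 had 10.9 CPM in hCD33m, 8.21 in hCD33M and 11.1 in Control (hCD33M over Control -0.44, -0.73 to -0.14, on 194 and 196 UMIs). Cox6b1 had 206.6, 213.8 and 216.4 CPM, against 2.85, 2.33 and 2.098 CPM for the testis form Cox6b2. The heart form Cox7a1 had 0.57, 0.55 and 0.68 CPM. Cox8a had 350.9, 367.4 and 360.4 CPM. Cox4i2, Cox8b, Cox8c and Ndufa4l2 were not analysed here.

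ATP synthase subunits had a median of -0.04 for hCD33m over Control and -0.03 for hCD33M over Control, with Atp5k apart from the rest. In hCD33m 11 of 15 nuclear subunits were below Control and 7 had intervals below 0, and in hCD33M 10 were below and 4 had such intervals (background 19.8% and 10.8%). Atp5k, subunit e at the dimer interface, had 112.2 CPM in hCD33m and 104.8 in hCD33M against 91.4 in Control (0.30, 0.21 to 0.38, and 0.20, 0.11 to 0.29). Usmg5, another small membrane subunit whose older symbol lies outside the rule, had 95.1, 88.3 and 78.0 CPM (0.29 and 0.18). The 3 genes for the identical c subunit of the rotor were all below Control in both transgenic libraries: Atp5g1 had 147.6, 154.0 and 157.2 CPM, Atp5g2 had 272.9, 271.4 and 296.8 CPM, and Atp5g3 had 84.9, 85.8 and 92.9 CPM. Their log2 ratios ranged between -0.09 and -0.13 for hCD33m and between -0.03 and -0.13 for hCD33M, and the hCD33M interval of Atp5g1 included 0 (-0.10 to 0.04). The catalytic subunit Atp5b had 236.9, 223.6 and 227.8 CPM, Atp5a1 had 206.8, 205.2 and 218.4 CPM, and the gene for the inhibitor protein, Atpif1, had 250.5, 249.5 and 243.7 CPM.

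Among the assembly factors 1 of 13 was at least 1.2-fold higher and 2 lower than Control in hCD33m (background 7.51% and 8.08% of genes). In hCD33M 0 were higher and 2 lower (background 5.47% and 3.85%). Sdhaf1, which helps place iron-sulfur clusters in Sdhb, had 35.3 CPM in hCD33m and 35.4 CPM in hCD33M against 45.2 CPM in Control (-0.36, -0.49 to -0.22, and -0.35, -0.50 to -0.21). By cluster Sdhaf1 was below Control in both transgenic libraries in clusters 0 (40.0 and 37.9 against 45.5 CPM) and 1 (32.9 and 34.3 against 46.4 CPM), but not in cluster 2 (38.5 and 43.8 against 36.2 CPM). Sdhaf2, which helps attach flavin to Sdha, had 23.6 CPM in hCD33m, 19.3 in hCD33M and 18.9 in Control (hCD33m over Control 0.32, 0.13 to 0.52). Atp5s had 11.1, 11.4 and 13.8 CPM (-0.32 and -0.28). Cox7a2l, listed here with complex IV, had 232.1, 243.5 and 260.7 CPM (-0.17 and -0.10).

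**Figure D2:**
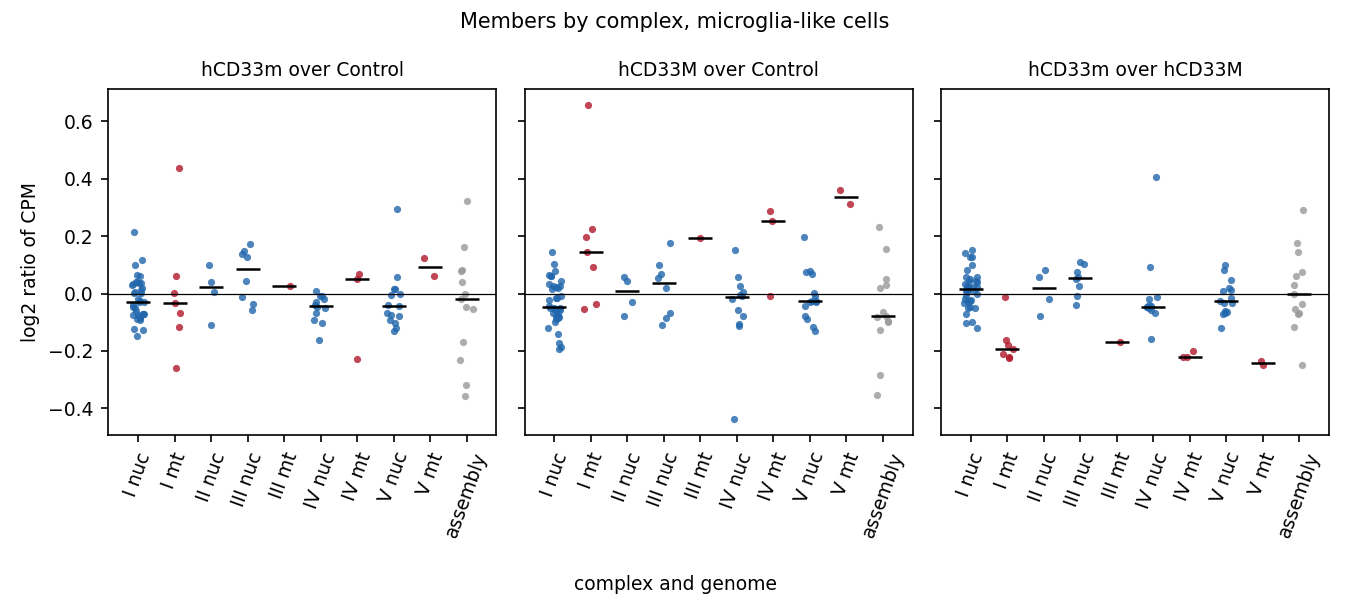
Log2 ratio of CPM in microglia-like cells for each member, by complex and genome (nuc, nuclear; mt, mitochondrial; grey, assembly factors), in 3 panels for hCD33m over Control, hCD33M over Control and hCD33m over hCD33M. Each point is 1 member and each bar a group median; the mitochondrial medians of hCD33M over Control are 0.15 (I), 0.19 (III), 0.25 (IV) and 0.34 (V), and those of nuclear subunits lie between -0.05 and 0.04.

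Set against each other, the 2 genomes gave 1.79 mitochondrially encoded UMIs per nuclear-encoded UMI in hCD33m, 2.05 in hCD33M and 1.73 in Control microglia-like cells. Each UMI counts 1 molecule from its 3′ end and is not divided by length, so the ratio is read between libraries and cells and not between complexes. The ratio was highest in hCD33M in each of the 4 complexes with parts from both genomes. It was 1.67, 1.91 and 1.60 for complex I, 2.03, 2.34 and 2.07 for complex III, 3.44, 3.86 and 3.38 for complex IV, and 1.08, 1.25 and 0.970 for ATP synthase in hCD33m, hCD33M and Control. The difference of hCD33M from Control was 0.24 on the log2 scale (0.23 to 0.25), 0.37 for ATP synthase and 0.18 for complex III, while hCD33m differed from Control by 0.05 (0.04 to 0.06).

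The balance moved with depth, and hCD33M was highest, with hCD33m above Control, in each depth range from 4000 UMIs up. In cells of 4000 to under 5000 UMIs it was 1.71 in hCD33m, 2.102 in hCD33M and 1.67 in Control, and in cells of 12000 UMIs or more it was 1.89, 2.08 and 1.78. The hCD33m and Control intervals overlapped at 4000 to under 5000 UMIs (1.694 to 1.731 and 1.647 to 1.699). They also overlapped at 5000 to under 6000 UMIs (1.716 to 1.746 and 1.697 to 1.734). In cells of 3000 to under 4000 UMIs hCD33M and Control were within counting error (2.05, 2.01 to 2.09, and 2.04, 1.98 to 2.11), while hCD33m was below both (1.82, 1.79 to 1.85). Below 3000 UMIs Control was highest, with 2.21 in 157 hCD33m, 2.59 in 122 hCD33M and 3.20 in 68 Control cells.

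Across clusters the balance spanned a wider range than between genotypes. Clusters 0, 1, 2 and 5 lay between 1.65 and 2.22 in every library, cluster 6 reached 3.31 in hCD33m and 4.17 in hCD33M, and the proliferating cluster 11 had 1.27, 1.74 and 1.55 on 15, 24 and 12 cells. The 3 clusters of low depth differed among themselves. Cluster 4, led by Gm42418 and Lars2, had 1.04, 1.06 and 1.004 at median depths of 1078, 1295 and 1678.5 UMIs, and cluster 8 had 13.3, 12.7 and 12.2 at 1040, 1040 and 1888 UMIs. Cluster 10, led by Ttr and Cxcl13, had 2.19, 3.91 and 2.89 at 1338.5, 1140 and 1196 UMIs, so that its hCD33m value lay within the range of clusters 0, 1, 2 and 5. In cluster 8 nuclear members held 0.338%, 0.360% and 0.385% of UMIs, against 1.11%, 1.11% and 1.13% in microglia-like cells, while Malat1 held 11.2%, 10.25% and 8.65%. Barcodes above the mitochondrial limit had 28.1, 17.2 and 37.5, with nuclear members at 0.606%, 0.890% and 0.473%, so that nuclear members were low there as well as mitochondrial members high.

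**Figure D3:**
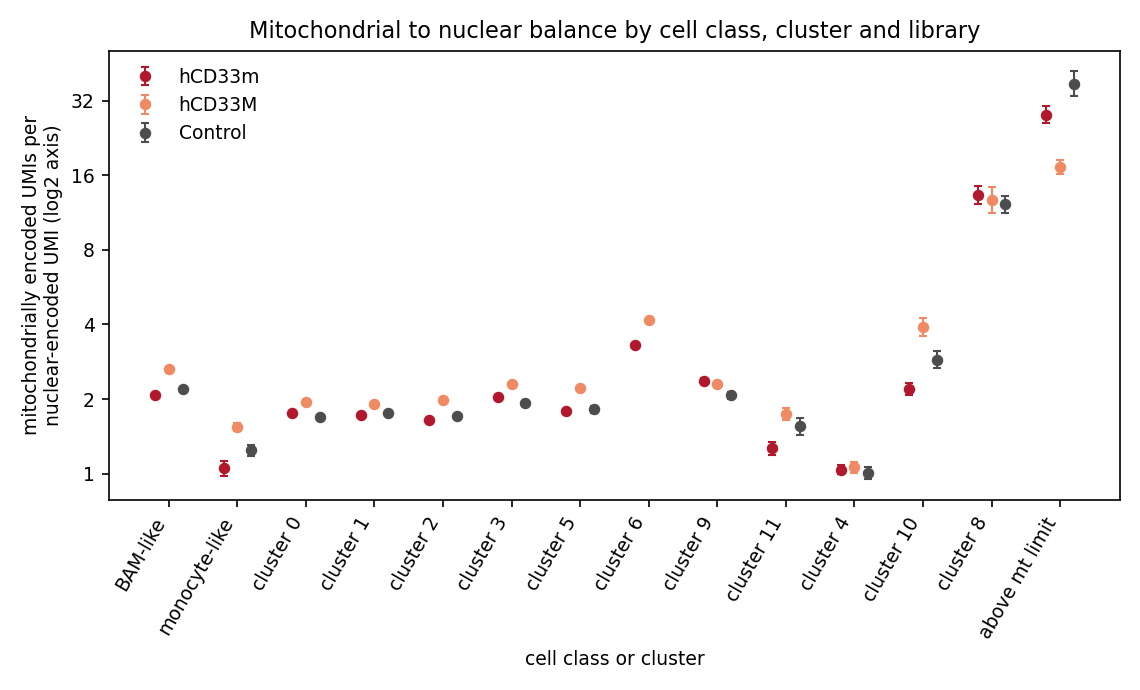
Mitochondrially encoded UMIs per nuclear-encoded UMI (log2 axis) by cell class or cluster, for hCD33m, hCD33M and Control, with 95% counting intervals; clusters 3, 4, 10 and 8 and the barcodes above the mitochondrial limit were left out of the microglia-like class, and cluster 13 (30 cells) is not drawn. Apart from clusters 6, 8 and 10 and those barcodes, values lie between 1.004 and 2.63; cluster 6 stands at 3.31 and 4.17 with no Control cells, and cluster 8 lies between 12.2 and 13.3.

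Over single cells the mitochondrial sum was spread far wider than counting gives, and the nuclear sum lay closer to it. With each cell thinned to 2000 UMIs (4508 hCD33m, 3910 hCD33M and 2672 Control cells, with 44, 23 and 23 shallower cells left out), the variance of the summed mitochondrial UMIs was 10.1, 12.2 and 7.78 times its mean, and that of the nuclear UMIs 1.54, 1.53 and 1.47 times. Unthinned, the coefficient of variation of the share was 50%, 51.0% and 44.2% for mitochondrial and 20.6%, 20.4% and 20.1% for nuclear members. Summed complex I and complex IV genes of the mitochondrial genome correlated over cells at Pearson's r of 0.72, 0.76 and 0.67 (Spearman's rho 0.67, 0.68 and 0.63), whereas the nuclear sums of complexes I and V correlated at 0.14, 0.13 and 0.08 (rho 0.13, 0.13 and 0.08). For nuclear sums of about 5 to 8 UMIs a cell, counting noise limits any correlation.

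Between the 2 genomes the correlation over cells was low. Summed mitochondrial and nuclear members correlated at r of 0.13 in hCD33m, 0.11 in hCD33M and 0.07 in Control (rho 0.13, 0.12 and 0.08), and within complex IV at 0.13, 0.10 and 0.05 (rho 0.10, 0.10 and 0.06). Over pairs of single genes the median r was 0.40, 0.43 and 0.35 for 55 mitochondrial pairs, 0.01 for 1176 nuclear pairs in each library and 0.01 for 539 mixed pairs in each library. Against Malat1 the nuclear sum had r of -0.38, -0.38 and -0.33 (rho -0.37, -0.35 and -0.32), and against ribosomal protein genes 0.27, 0.26 and 0.25 (rho 0.27, 0.26 and 0.24). The points of each library share its preparation, a fixed total of UMIs ties the shares to each other, and in counts this sparse a weak correlation is no result.

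**Figure D4:**
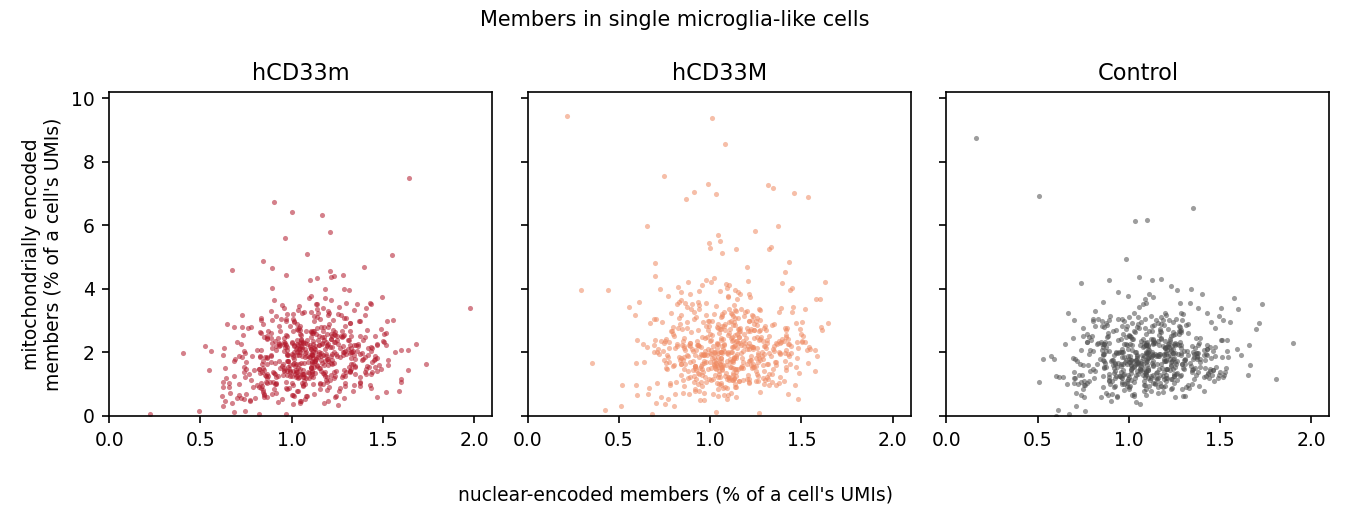
Share of a cell's UMIs in mitochondrially encoded members against that in nuclear-encoded members, for 600 microglia-like cells drawn from each of hCD33m, hCD33M and Control. Each point is a cell; the clouds are tall and narrow, with the nuclear share centred at 1.09%, 1.10% and 1.11% and the mitochondrial share spread up to the limit of 10%.

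Cells other than microglia had passed the CD45low gate in small numbers, and they allowed a test with library as a block, since each library held all 3 classes. Border-associated macrophages (BAMs), the macrophages of meninges and vessels, gave 130 hCD33m, 106 hCD33M and 83 Control cells called BAM-like, with median depths of 8333.5, 6694 and 9481 UMIs. Members were higher in them in large numbers: 51 of 101 were higher and 3 lower than in microglia-like cells at adjusted p under 0.05 in edgeR's quasi-likelihood test (background 12.6% of genes higher and 9.12% lower). All 13 mitochondrial members rose, with a median log2 change of 0.41, and 38 of 88 nuclear members rose with a median of 0.18, beside -0.02 over all genes. The background, here and for the other class below, includes genes of lower counts, where a change is harder to call. No share over genes of like level was taken. BAM markers (10 genes) summed to 5971, 6298 and 5044 CPM in BAM-like cells, against 312, 261 and 264 CPM in microglia-like cells. Microglial RNA was present as well: the 10 microglial markers, 0 of them at 0, summed to 18940, 14890 and 21790 CPM in BAM-like cells, against 31740, 29910 and 32800 CPM in microglia-like cells. Doublets were not called and their part was not tested.

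Complex IV led in both genomes. mt-Co1 had 3360, 4306 and 4078 CPM in BAM-like cells of hCD33m, hCD33M and Control, against 2273, 2650 and 2664 CPM in microglia-like cells, so that the classes did not overlap (log2 0.74 ± 0.079 SE, adjusted p = 1.7e-10, edgeR). Of its 12 nuclear subunits 10 rose, with a median of 0.40. Cox8a had 474.7, 506.1 and 474.8 CPM in BAM-like cells against 350.9, 367.4 and 360.4 CPM in microglia-like cells (0.55 ± 0.077), and Cox6b1, Cox4i1 and Cox7c rose by 0.47, 0.46 and 0.46. Cox6a2 had 12, 2 and 6 UMIs in BAM-like cells and did not pass (log2 -0.74 ± 0.32, adjusted p = 0.10, edgeR).

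In complex III, Uqcrh rose most: 274.5, 303.9 and 275.6 CPM in BAM-like cells against 208.5, 204.7 and 217.1 CPM in microglia-like cells (0.54 ± 0.063), with Uqcr10, Uqcr11 and Uqcrb also higher. In ATP synthase 8 of 15 nuclear subunits rose, led by Atp5l (0.51), the g subunit of the membrane part, and Atp5h (0.45), the d subunit of the peripheral stalk, while both mitochondrial subunits rose by 0.67 (mt-Atp6) and 0.59 (mt-Atp8). In complex I all 7 mitochondrial and 14 of 36 nuclear subunits rose, among them Ndufb11 (0.39), Ndufa3 (0.37) and Ndufa7 (0.37). The members that fell were all of complex I: Ndufa9, at the joint of its arms, with 67.0, 67.4 and 64.8 CPM against 97.5, 96.9 and 100.2 CPM (-0.45 ± 0.099), the core subunit Ndufs8 (-0.29), and Ndufaf7 (-0.53), a methyltransferase that acts on a core subunit during assembly. Ndufaf8 rose by 0.55. Of the falls, that of Ndufa9 passed in all 16 alternative settings, that of Ndufaf7 in 10 of 15 and that of Ndufs8 in 9 of 16. None of the 4 subunits of complex II passed, with fitted log2 values between -0.23 and 0.23.

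These fits use TMM scaling, a factor per sum that levels most genes. With the library total alone, the median of all genes was -0.13 in place of -0.02, 33 members were higher and 7 lower, and of the mitochondrial members 9 were higher. Thinned to 2000 UMIs a cell, 33 were higher and 1 lower, and thinned with the total alone 25 were higher and 5 lower. Without the hCD33m library 33 were higher. In CPM, 13 of 13 mitochondrial members were higher in BAM-like cells in each of the 3 libraries, and 36 nuclear members were higher and 20 lower in each.

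The monocyte-like class was small, with 7 hCD33m, 19 hCD33M and 13 Control cells, and its nuclear and mitochondrial members were further apart in median change (0.80 and -0.06) than those of BAM-like cells (0.18 and 0.41). Ly6c2 and Plac8, which mark monocytes, were at 1681 and 6497 CPM in hCD33m, 1174 and 3225 CPM in hCD33M, and 772.2 and 2678 CPM in Control monocyte-like cells. The 10 microglial markers summed to 780.1, 3019 and 1224 CPM in them, with 3 at 0 in hCD33m, 0 in hCD33M and 1 in Control. Of 88 nuclear members 51 were higher and 1 lower than in microglia-like cells (background 11.8% of genes higher and 18.7% lower), with a median log2 change of 0.80, beside -0.56 over all genes. Of 13 mitochondrial members 4 were higher and 2 lower, with a median of -0.06. The balance was accordingly low, at 1.05, 1.54 and 1.24 mitochondrial UMIs per nuclear UMI in hCD33m, hCD33M and Control. Monocyte-like cells had a median depth of 10693, 10944 and 10474 UMIs, and Malat1 was at 13460, 12910 and 9740 CPM in them against 42040, 39190 and 37100 CPM in microglia-like cells.

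The mitochondrial genome itself divided by complex in these cells. mt-Co1 had 4170, 5550 and 5065 CPM in monocyte-like cells against 2273, 2650 and 2664 CPM in microglia-like cells (1.05 ± 0.14, adjusted p = 2.2e-13, edgeR), and mt-Co2, mt-Co3 and mt-Atp6 rose by 0.70, 0.61 and 0.59. The complex I genes did not rise: mt-Nd2 had 1103, 1218 and 1231 CPM against 1638, 1833 and 1569 CPM (-0.41 ± 0.15, adjusted p = 0.022, edgeR) and mt-Nd4l fell (-0.79 ± 0.24, on 5, 19 and 14 UMIs). mt-Cytb had 1466, 1872 and 2178 CPM against 2211, 2483 and 2170 CPM and did not pass (-0.23 ± 0.14).

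Among nuclear subunits Uqcrh rose most, with 820.5, 636.1 and 751.3 CPM in monocyte-like cells against 208.5, 204.7 and 217.1 CPM in microglia-like cells (1.88 ± 0.16, adjusted p = 3.3e-30, edgeR). Atp5l (1.81), Atp5e (1.59) and Atp5h (1.59) of ATP synthase followed, where 13 of 15 rose with a median of 0.96. In complex IV 11 of 12 rose with a median of 1.14, led by Cox4i1 (1184, 909.3 and 1085 CPM against 394.5, 407.8 and 423.9 CPM, 1.45 ± 0.15), Cox6c (1.43) and Cox5b (1.36). The remaining subunit, Cox6a2, had 0 UMIs in all monocyte-like cells, against 10.0 CPM in microglia-like cells, at least 1.48-fold lower by a floor of 3 counts over the class. In complex I 20 of 36 rose, led by Ndufa6 (1.63), Ndufa3 (1.33) and Ndufb5 (1.15), and in complex III 5 of 8, with Uqcrfs1 at 1.38. In complex II Sdhb rose (0.62) and Sdha did not pass (-0.31 ± 0.27). Assembly factors did not follow: of 13, Cox7a2l rose (1.07) and Sdhaf4, which aids maturation of Sdha, fell (-1.49 ± 0.57, on 0, 2 and 4 UMIs).

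The median of nuclear members stayed above 0 in every setting tried, but the counts moved. The mitochondrial median changed sign among settings. It was 0.22 at resolution 0.3, where the class held 28 hCD33m, 23 hCD33M and 18 Control cells. Without the hCD33m library it was 0.12, and against microglia-like cells of at least 8000 UMIs it was 0.13. Thinned to 2000 UMIs a cell, 11 members were higher, 0 of them mitochondrial, and 6 lower, with medians of 0.04 over nuclear members, -0.83 over mitochondrial members and -1.35 over all genes. Thinned with the total alone, 24 were higher, 4 of them mitochondrial, and 1 lower, with medians of 0.62, -0.23 and -0.78. No member was called lower when any 1 library was left out, nor by DESeq2, so the falls of mt-Nd2, mt-Nd4l and Sdhaf4 need all 3 libraries and edgeR.

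**Figure D5:**
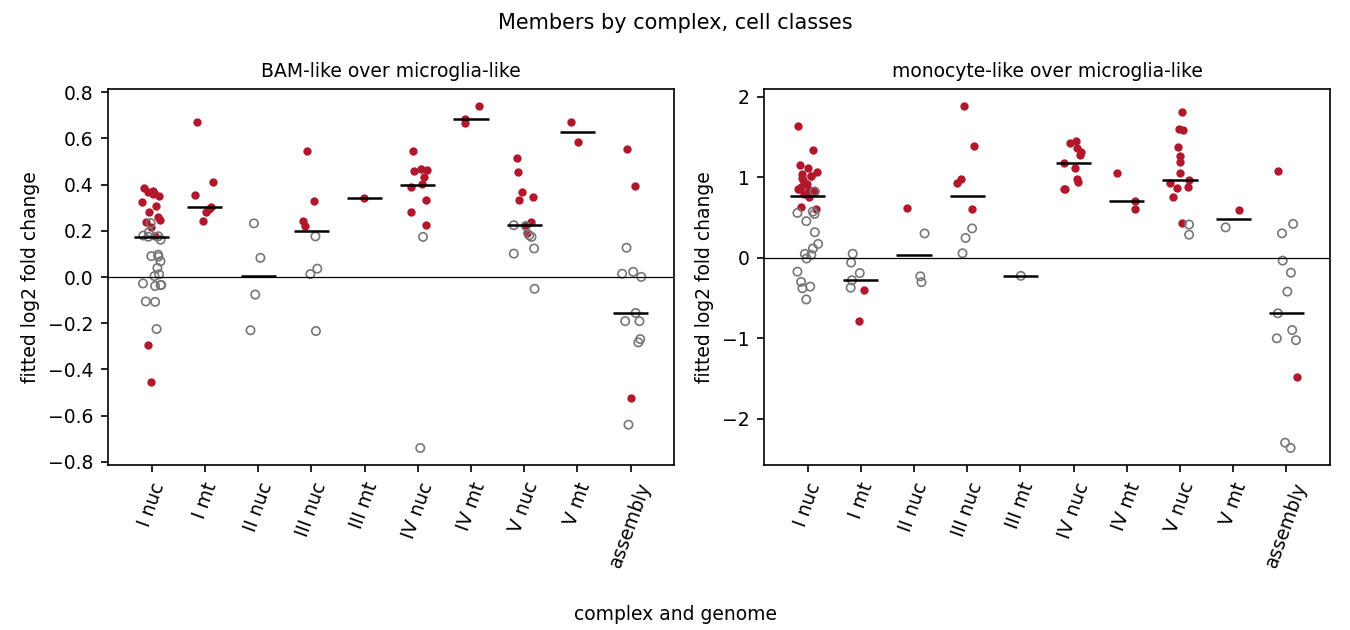
Fitted log2 fold change of each member by complex and genome, for BAM-like over microglia-like cells (left) and monocyte-like over microglia-like cells (right), with library as a block. Filled points passed adjusted p under 0.05, bars are group medians, and Cox6a2, with 0 UMIs in monocyte-like cells, is left out at right; all 13 mitochondrial points at left are filled, and at right 4 of them are filled above 0 and 2 below.

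Cytosolic ribosomal protein genes were higher in both classes, 81 of 83 in BAM-like (median 0.71) and 80 of 83 in monocyte-like cells (median 1.63). The background was 12.6% of genes higher and 9.12% lower in BAM-like cells, and 11.8% higher and 18.7% lower in monocyte-like cells. The other lists of the pathway moved less: mitochondrial ribosomal proteins rose for 6 and fell for 4 of 77 in BAM-like cells and rose for 16 and fell for 0 in monocyte-like cells. Of 14 genes of mitochondrial gene expression tested, such as Tfam, 0 rose and 0 fell in BAM-like cells and 0 rose and 1 fell in monocyte-like cells. Oxidant defence genes rose for 4 of 6 in both classes, and of 15 glycolysis genes 2 rose and 4 fell in BAM-like and 6 rose and 3 fell in monocyte-like cells. In the tricarboxylic acid cycle 1 rose and 2 fell of 13 in BAM-like cells, and 2 rose and 1 fell in monocyte-like cells. Between genotypes, 24 of 83 cytosolic ribosomal protein genes were at least 1.2-fold lower in hCD33m than in Control (background 8.08% of genes). Their median ratios were -0.22 for hCD33m over Control and -0.08 for hCD33M over Control. Mitochondrial ribosomal proteins had -0.06 and -0.07, the tricarboxylic acid cycle 0.01 and 0.03, and glycolysis -0.02 and -0.10.

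Letters of 3 motifs known from promoters of such genes were looked for in the nuclear members. RefSeq promoters on GRCm38.p6, from 250 bases before to 50 after the start, were matched for 72 of 88 nuclear members and searched on both strands for the NRF1 motif (GCGC, any base, then TGCGC), the ETS motif bound by GABP (CCGGAAG) and the YY1 motif (AANATGGC). The NRF1 letters were in 25% of member promoters, against 4.603% of all 32851 promoters and 11.2% of those of genes at 5 CPM or more. The ETS letters were in 27.8%, against 8.86% and 19.6%, and the YY1 letters in 23.6%, against 6.05% and 9.52%. At least 1 of the 3 was in 63.9% of member promoters, against 17.4% and 34.7%, in 62.7% of the promoters of mitochondrial ribosomal proteins and in 61.8% of those of cytosolic ribosomal proteins. The promoters of cytosolic ribosomal proteins held the NRF1, ETS and YY1 letters in 7.89%, 35.5% and 22.4%, and 0 member promoters held all 3. None of these shares was tested. A match says only that the letters are there. Some genes that stood out above, such as Cox7c and Cox5b, held none of the 3 motifs. These 4 are shown because their genes stood out and also held a motif, in capitals: Atp5k between genotypes, and Atp5l, Uqcrh and Cox6b1 between classes. They lie at chr5:108434425-108434464, chr9:44920933-44920969, chr4:116075071-116075095 and chr7:30626121-30626157, all on the minus strand.
Atp5k, NRF1: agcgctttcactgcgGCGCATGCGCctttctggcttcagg
Atp5l, ETS: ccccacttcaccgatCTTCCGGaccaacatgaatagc
Uqcrh, ETS: gaggagtatgccgcaCTTCCGGcca
Cox6b1, ETS: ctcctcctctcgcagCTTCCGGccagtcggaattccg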

How the data were processed

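The deposited tables hold raw UMI counts per gene and cell barcode, made by the authors with Cell Ranger (STAR) on mm10 after 10x Chromium 3′ v3.1 chemistry; the submitters' notes also name Seurat. Which gene annotation was used is not stated there. Every barcode in them has more than 200 genes, and every gene has a UMI in 3 cells or more. Their barcodes equal the numbers the study gives before its filter except for a small excess in hCD33m, and slightly more cells were kept here than it states.

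Cells with over 200 and under 8000 genes, at least 200 UMIs and at most 10% mt- UMIs were clustered (Python 3.11.15, leidenalg 0.10.2) on 2000 variable genes, without members, sex-linked and early response genes, with 15 principal components, 20 neighbours and resolution 0.5. BAM-like and monocyte-like clusters had at least 3 markers of that type among their top 10 genes, microglia-like ones kept at least 3 microglial markers near the average, and a cluster below 1 in 3 of the median UMIs of its libraries was left unnamed; these rules were chosen with the clusters in view. No doublet caller was run beyond the gene limit, and leaving out the top 5% of cells by UMIs was an alternative.

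UMIs were summed per library and class. Genotypes were compared as log2 ratios of CPM with exact 95% binomial intervals, over genes of at least 5 CPM. Intervals cover counting error only, and a class with 0 counts is set against a floor of 3 counts. Classes were tested with edgeR 4.0.16 (R 4.3.3, TMM, filterByExpr, quasi-likelihood, library as block, Benjamini-Hochberg over all genes, 0.05), with DESeq2 1.42.0 as an alternative. The p-values rest on a spread that edgeR pools over genes, since 3 libraries leave few values for a single gene. These 3 libraries are of different genotypes and not replicates of a condition, and hCD33m was also of the other sex. The steps were tested on simulated data. Named genes were the 13 mitochondrial members, the 3 highest and 3 lowest of each nuclear group per pair at 50 CPM or more, members 1.5-fold apart, the 4 largest called per direction and complex, isoform sets and Atpif1; Sdhaf1, Sdhaf2, Atp5s, Usmg5 and a few others were named after their values were seen. The members and lists were chosen with earlier results of these data known. Copies were searched in GENCODE transcripts, where Atp5o.1 matched no symbol. The alternatives with the total only, clusters 0 and 1, cluster 3, cluster 6 and depth ranges were chosen after seeing the data.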

Additional observations from a re-analysis of the deposited data

How the results depend on the processing

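Of 99 alternative values of the 6 genotype medians, 92 stayed within the spread allowed, 7 moved more and 0 were recorded as reversed. That spread was the median of the single-gene intervals, wide for nuclear members (-0.11 to 0.06 for hCD33m over Control). A reversal could be recorded only where it excluded 0. This held only for mitochondrial members of hCD33M over Control and of hCD33m over hCD33M. Of 32 alternative class counts 26 stayed within 1.5 times. The median of mitochondrial members for hCD33M over Control ranged between 0.12 and 0.25 over 16 alternatives, above 0 in each. It was 0.1230 over clusters 0 and 1 only and 0.1278 without cluster 6. Under the stricter cell filter, whose mt- limit acts on the measure itself, it was 0.1312. For hCD33m over Control it was -0.0356 after thinning, -0.0608 over clusters 0 and 1 only and -0.0371 without cluster 6, so that no direction is given for it. For hCD33m over hCD33M it was -0.2451 over cells of 4000 to under 8000 UMIs. Nuclear medians ranged between -0.08 and 0.02 in all 3 pairs. Members higher in BAM-like cells numbered 33 after thinning, 33 with the total only and 25 with both, and ranged between 33 and 44 when 1 library was left out (33 without hCD33m). In monocyte-like cells they numbered 11 after thinning and 24 with the total only as well, and ranged between 46 and 60 when 1 library was left out. The cause was not tested. Without the library as a replicate block 38 members were higher in BAM-like and 59 in monocyte-like cells; no paired analysis was possible between genotypes because each has 1 library. The monocyte-like class rests on 39 cells in all.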
